A study of Mus musculus with 18 samples.

Results

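Messenger RNA was compared between the retinal pigment epithelium (RPE) of WT129 and of C57BL/6 mice, the wild-type strains that serve as references for the receptor knockouts of this series. The members were chosen by label and by table: the 3 WT129 libraries, from a table that they share with 3 Itgb5-/- libraries, were set against the 6 C57BL/6 libraries of another table, which also holds 3 Tyro3-/-V1 and 3 Mertk-/-V2Tyro3-/-V2 libraries. These 9 libraries are part of 18 libraries in 5 groups. WT129 is the genotype the labels give for the 129 mice, with no substrain named, and the other mice are C57BL/6J by genotype and carry no engineered allele per the labels. All were taken at postnatal day 25, 1 h after light onset, with no treatment and used directly ex vivo. The libraries are biological replicates per the labels, which do not say how many animals or eyes went into each. The knockout libraries entered no test of the strains, and their levels are given only where they help to place a difference.

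The RPE is the pigmented cell layer between the photoreceptors and the choroid. It takes up the shed tips of photoreceptor outer segments every day, soon after light onset, digests them in lysosomes, regenerates the visual chromophore, moves ions and nutrients between blood and retina, and holds melanin made with tyrosinase. Strains of the 129 family and C57BL/6 are both inbred and are known to differ in coat and eye pigment genes and in several immune genes, and many knockouts were made in 129 embryonic stem cells.

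The 2 tables were normalized apart and name their genes differently, so a gene was compared only where its name stood on 1 line of each table. That left 51365 genes, which held 96.2% to 98.5% of the reads of a library. Levels are given as CPM, the reads of a gene scaled to the same library total over these genes, and 16749 genes with at least 1 CPM in at least 3 of the 9 libraries were tested with limma on log2(CPM + 0.5). Every log2 fold change is WT129 minus C57BL/6 on that scale, which understates the change of low genes, and a gene is called where its Benjamini-Hochberg adjusted p over all 16749 genes is below 0.05. Libraries held 21767887 to 24519972 reads in WT129 and 14137666 to 30196674 reads in C57BL/6. No library of either strain is in the table of the other, so strain, colony, run and the way each table was counted cannot be told apart in any result given here.

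Some libraries stood apart. C57BL/6 replicates 1 to 3 carry the mark 23 in their names and replicates 4 to 6 do not, and the labels do not say what it stands for. C57BL/6 replicate 4 had the most myelin RNA of its group, with a summed list level of 3803 CPM against 3068 CPM in the next library, replicate 1, and a wider gap in single genes such as Mobp and Mbp. WT129 replicate 2 had the least interferon-induced RNA of its group and the most rod and lens RNA. WT129 replicate 3 had the most mitochondrial RNA, with a sum of 64140.3 CPM over the 13 protein genes of the mitochondrial genome against 36127 and 34086 CPM in replicates 1 and 2, and the lowest sums of its group for RPE identity, lysosomal and fatty acid oxidation genes. That library also had 1027 CPM of Xist, which is made from the inactive X of females, and 1.74 CPM of the Y-linked Ddx3y, against Xist at 0.469 and 2.83 CPM and Ddx3y at 85.3 and 86.3 CPM in WT129 replicates 1 and 2. All 6 C57BL/6 libraries had Xist at 0.790 to 1.46 CPM and Ddx3y at 87.8 to 108 CPM.

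The strains differed in 4050 of 16749 genes, a background of 24.2% called. Of these, 1924 were higher (11.5%) and 2126 lower (12.7%) in WT129, and 1754 (10.5%) differed at least 2-fold, with 1108 higher (6.62%) and 646 lower (3.86%). At an unadjusted p below 0.05, 6014 genes (35.9%) differed. Levels did not overlap between the 3 WT129 and the 6 C57BL/6 libraries in 4208 genes, or 25.1%. The median log2 fold change over all genes was -0.01. The first principal component held 51.0% of the variance, with the WT129 libraries at -73.6 to -62.2 and the C57BL/6 libraries at 24.3 to 42.4.

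The same test within C57BL/6, replicates 4 to 6 against 1 to 3, called 1 gene (0.00597%), but 5370 genes (32.1%) were below an unadjusted p of 0.05. On the recovered reads that split gave 0 calls with edgeR and 2726 with DESeq2, and limma called 6083 once C57BL/6 replicate 4 was left out, so these libraries are not uniform. Against replicates 1 to 3 alone, WT129 differed in 3831 genes (22.9%), 2378 higher and 1453 lower, and against replicates 4 to 6 alone in 2304 (13.8%), 1184 higher and 1120 lower. In the table that holds WT129, Itgb5-/- differed from WT129 in 5 genes (0.0299%), with 1367 (8.16%) below an unadjusted p of 0.05.

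**Figure D1:**
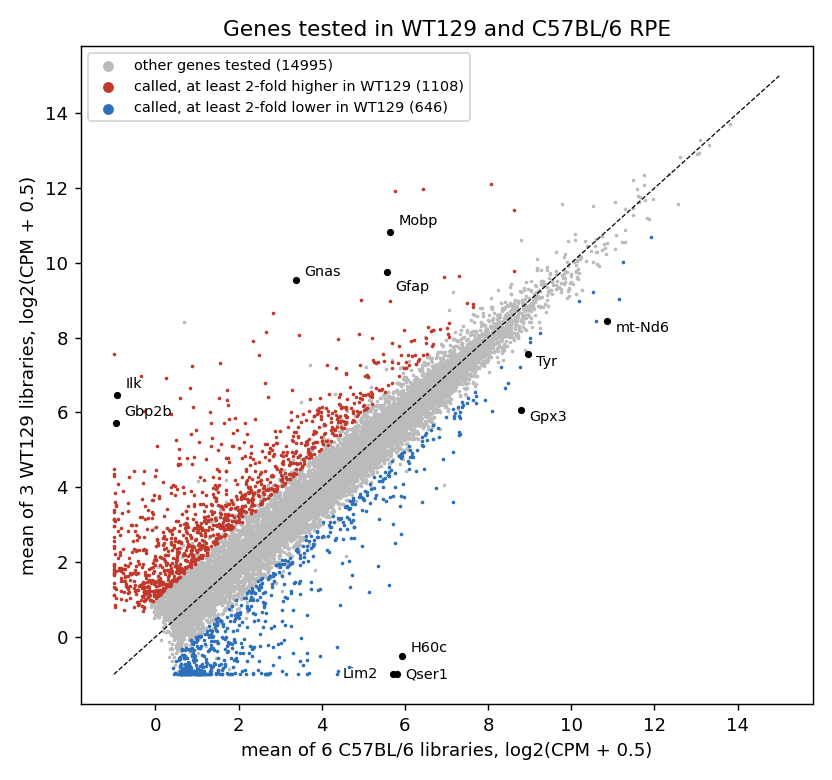
Mean level of each of the 16749 genes tested, as log2(CPM + 0.5), in 3 WT129 libraries (vertical axis) against 6 C57BL/6 libraries (horizontal axis). Red points are the 1108 called genes at least 2-fold higher in WT129, blue points the 646 at least 2-fold lower, and the dashed line marks equal levels. Named points include Gbp2b and Ilk at the left edge, at under 0.5 CPM in C57BL/6, and Qser1 and Lim2 along the lower edge, with no read in WT129.

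The RPE identity of the samples was read from its markers. Rgr, an opsin that helps to remake the chromophore, stood at 8740.2, 8513 and 6084 CPM in WT129 replicates 1 to 3, against 6646 to 10986 CPM (median 8245) in C57BL/6. The transthyretin gene Ttr had 8987, 8470.0 and 5631 CPM in WT129 and 6426 to 10491 CPM (median 8091) in C57BL/6. Rpe65, the isomerase of the visual cycle, had 3607, 3306 and 2586 CPM in WT129, against 2475 to 3981 CPM (median 3137) in C57BL/6, with a log2 fold change of 0.00 and adjusted p = 0.995. These 3 markers were high in all 9 libraries and overlapped between strains. Other RPE markers did not overlap: Rlbp1 was called lower in WT129 (log2 fold change -0.72) and Kcnj13 higher (log2 fold change 1.12), as given below. The marker Best1, a chloride channel gene, was low throughout, at 0.422, 1.12 and 0.778 CPM in WT129 and 0.927 to 1.65 CPM (median 1.18) in C57BL/6.

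The counts of each gene list are to be read against the shares of all genes, 11.5% higher and 12.7% lower. Transcripts induced by type I interferon were more often higher in WT129. These are genes that interferon alpha and beta switch on through the ISGF3 complex, whose DNA site is the interferon-stimulated response element (ISRE), and their products restrict viruses inside the cell. Of 38 such genes, all tested, 22 were higher (57.9%) and 2 lower (5.26%) in WT129, with a median log2 fold change of 1.39. Against C57BL/6 replicates 1 to 3 alone 16 were higher, and against replicates 4 to 6 alone 15. The promoters of Ifit1 and Isg15, both higher members, and of Gbp2b, which is higher too but stands in the list of GTPases induced by interferon gamma, are shown because they carry the ISRE core. They are the 250 bases before the RefSeq start, on the GRCm38.p6 reference, with each match to the ISRE core, taken as GAAA, any 2 bases and GAAA on either strand, in capitals. The reference is built from C57BL/6J, so the letters are not those of the 129 alleles.
Gbp2b, chr3:142594597-142594846, plus strand: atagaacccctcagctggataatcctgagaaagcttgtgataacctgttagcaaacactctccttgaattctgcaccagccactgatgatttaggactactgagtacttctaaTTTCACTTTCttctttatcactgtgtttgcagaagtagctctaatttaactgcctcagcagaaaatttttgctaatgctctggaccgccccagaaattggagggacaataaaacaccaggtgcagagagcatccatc
Ifit1, chr19:34640639-34640888, plus strand: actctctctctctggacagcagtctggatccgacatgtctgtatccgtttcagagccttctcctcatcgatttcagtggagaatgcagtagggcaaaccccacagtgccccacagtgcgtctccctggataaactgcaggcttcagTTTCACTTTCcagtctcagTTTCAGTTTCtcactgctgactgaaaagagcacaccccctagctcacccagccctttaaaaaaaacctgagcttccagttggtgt
Isg15, chr4:156200819-156201068, minus strand: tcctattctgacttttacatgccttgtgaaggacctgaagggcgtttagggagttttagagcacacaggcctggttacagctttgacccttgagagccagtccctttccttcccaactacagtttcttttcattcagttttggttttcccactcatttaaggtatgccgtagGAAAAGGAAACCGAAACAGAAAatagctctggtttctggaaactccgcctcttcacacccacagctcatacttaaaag
Gbp2b holds 1 match, which ends 127 bases before the start. Ifit1 holds 2, ending 94 and 75 bases before it, and Isg15 holds 3 that overlap each other, ending 68, 62 and 56 bases before it. Of all 32851 RefSeq mouse promoters of that length, 978 (2.98%) hold the core, and of the 27025 genes they belong to, 936 (3.46%) do. Among the 26 genes of the type I interferon list with a promoter in the table it was in 12 (46.2%), with 7 of 14 among those higher in WT129 and 5 of 12 among the rest. The promoters of Ifi44, Ifi44l and Xaf1 hold no match in this window.

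Gbp2b, a guanylate-binding GTPase of the interferon gamma list, was read almost only in WT129. Its level was 90.1, 18.2 and 47.9 CPM in WT129 replicates 1 to 3, against 0 to 0.0886 CPM (median 0) in C57BL/6 (log2 fold change 6.39, SE 0.40, adjusted p = 6.26e-06). Ifi44, an interferon-induced antiviral gene, had 98.4, 20.8 and 72.2 CPM in WT129 and 1.28 to 3.28 CPM (median 1.82) in C57BL/6 (log2 fold change 4.46, SE 0.44, adjusted p = 0.0001). Its neighbour Ifi44l had 26.6, 4.87 and 10.5 CPM in WT129 and 0 to 0.0376 CPM (median 0) in C57BL/6 (log2 fold change 4.53, SE 0.40, adjusted p = 5.1e-05). None of the 3 overlapped between strains, and for genes near 0 the fitted change depends on the 0.5 CPM added. Mx1, a GTPase against influenza viruses whose gene is defective in many inbred strains, stood at 29.3, 7.03 and 8.65 CPM in WT129, against 0.667 to 1.22 CPM (median 0.894) in C57BL/6 (log2 fold change 3.17, SE 0.39, adjusted p = 0.000356). Xaf1, which promotes cell death after interferon, had 81.9, 32.8 and 65.1 CPM in WT129 and 8.88 to 12.2 CPM (median 9.97) in C57BL/6 (log2 fold change 2.42, SE 0.25, adjusted p = 0.000117).

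Further members were named after their values had been seen. Ifit1, which binds foreign RNA, had 134, 28.9 and 88.7 CPM in WT129 replicates 1 to 3, against 11.6 to 17.1 CPM (median 15.3) in C57BL/6 (log2 fold change 2.20, SE 0.39, adjusted p = 0.00321). The ubiquitin-like modifier Isg15 had 56.9, 12.3 and 23 CPM in WT129 and 4.50 to 6.84 CPM (median 5.27) in C57BL/6 (log2 fold change 2.14, SE 0.38, adjusted p = 0.00332). Its lowest WT129 library was still above the highest C57BL/6 library, as for Ifit1. The log2 fold change was 3.10 for Oas3, which senses double-stranded RNA, and 2.84 for Zbp1, a sensor of Z-form nucleic acid. The 2 members lower in WT129 were Bst2, a tether that holds budding viruses at the cell surface, and Ifi27. Bst2 had 14, 9.07 and 12.5 CPM in WT129 and 18.9 to 34.9 CPM (median 23.6) in C57BL/6 (log2 fold change -1.04, SE 0.19, adjusted p = 0.00391), and Ifi27 had 39.4, 47 and 31.3 CPM in WT129 and 67.6 to 83.8 CPM (median 74.9) in C57BL/6 (log2 fold change -0.96, SE 0.12, adjusted p = 0.000474).

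Replicates of WT129 did not share this signal evenly. WT129 replicate 2 was the lowest of the 3 in 22 of the 22 members called higher, and replicate 1 the highest in 21, while 20 of the 22 still did not overlap with C57BL/6. Summed over the list, the level was 3353, 1130.4 and 2268 CPM in WT129 replicates 1 to 3, against 932 to 1443 CPM (median 1147) in C57BL/6, so WT129 replicate 2 lay inside the C57BL/6 range. The count of members called higher was 32 without WT129 replicate 2, 16 without replicate 1 and 17 without replicate 3, and it was 21 or 22 with any C57BL/6 library left out. WT129 replicate 2 also had the highest rod sum of its group, 25175.4 CPM against 10726 and 12195 CPM in replicates 1 and 3, and the highest lens sum, 17669.8 CPM against 3386 and 7555 CPM. The ocular surface epithelium sum was 17350.4, 6565 and 16583 CPM in WT129 replicates 1 to 3, lowest in replicate 2 like the interferon sum. In C57BL/6 both sums were highest in replicate 1, at 18821 CPM for ocular surface and 1443 CPM for interferon genes, and lowest in replicate 6, at 4093 and 932 CPM. The part of these cell types in the level and spread of the interferon genes was not tested.

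**Figure D2:**
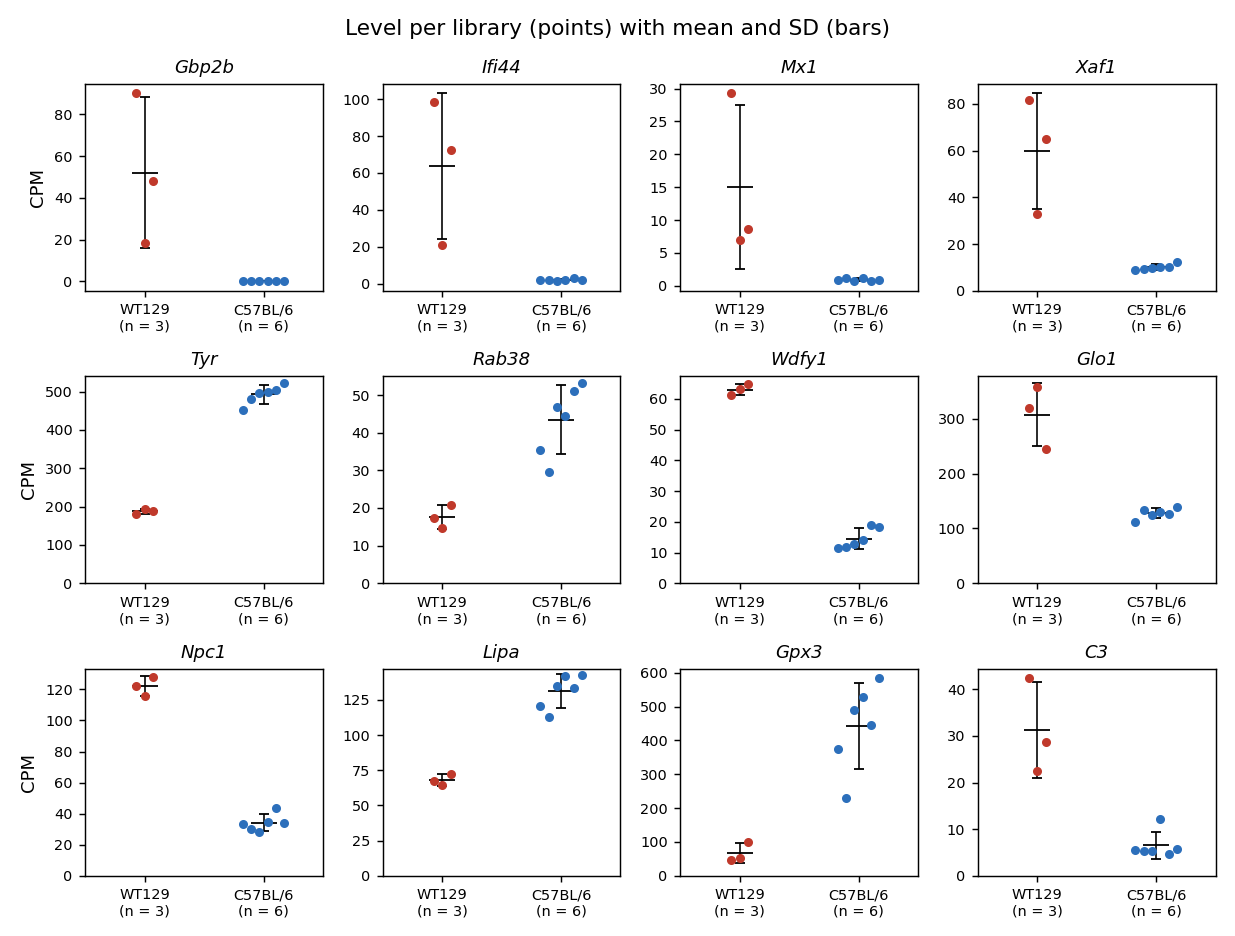
Level in CPM (vertical axes, linear) of 12 named genes in each library, with 3 WT129 libraries as red points on the left and 6 C57BL/6 libraries as blue points on the right of each panel, and the mean with its SD as black bars. Gbp2b, Ifi44, Mx1 and Xaf1 spread widely in WT129, while Tyr, Wdfy1 and Npc1 form tight groups that do not overlap between strains.

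The Ifi200 family, cytosolic DNA sensors and their relatives in a cluster on mouse chromosome 1, was next. Of 10 members tested, 6 were called higher and 0 lower, with a median log2 fold change of 1.24. Mndal had 36, 10.7 and 36.8 CPM in WT129 replicates 1 to 3, against 3.23 to 4.67 CPM (median 4.17) in C57BL/6 (log2 fold change 2.49, SE 0.35, adjusted p = 0.000881). Ifi203 had 46.1, 12 and 30.4 CPM in WT129 and 2.82 to 6.34 CPM (median 4.18) in C57BL/6 (log2 fold change 2.45, SE 0.38, adjusted p = 0.00139). Neither overlapped. Aim2, the sensor of the DNA inflammasome, had a log2 fold change of 1.22 (adjusted p = 0.00678). Members of this cluster are near-identical copies in part, so reads may have been split between them. Ifi202b, which is known to be barely expressed in C57BL/6, was not called: it had 91.7, 30.2 and 94.9 CPM in WT129 and 13.9 to 60.1 CPM (median 45.9) in C57BL/6 (adjusted p = 0.273). The family's sum was 312, 91.3 and 260.3 CPM in WT129 replicates 1 to 3, against 37.1 to 141 CPM (median 97.5) in C57BL/6.

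Genes of antigen presentation were higher in part. Of 24 genes tested for MHC molecules and peptide loading, 12 were higher and 1 lower, with a median log2 fold change of 0.83. Their sum was 2188, 959.9 and 1299.5 CPM in WT129 replicates 1 to 3, with replicate 2 again lowest, against 689 to 1058 CPM (median 878) in C57BL/6. H2-Q4, a class I gene, had 54.6, 21.5 and 31.7 CPM in WT129 replicates 1 to 3, against 8.91 to 13.8 CPM (median 10.1) in C57BL/6 (log2 fold change 1.62, SE 0.27, adjusted p = 0.0021). H2-K1, a classical class I heavy chain named after its value had been seen, had 495, 177 and 213 CPM in WT129 and 65.3 to 142 CPM (median 101) in C57BL/6 (log2 fold change 1.43, SE 0.32, adjusted p = 0.0108). The strains carry different class I alleles and class I genes are near-identical copies, so mapping to the C57BL/6 reference may have moved reads between them, and these levels are uncertain. The peptide transporter subunit Tap2 had a log2 fold change of 1.15, H2-T10 of 2.26, and Nlrc5, the transactivator of class I genes, named after its value had been seen, of 2.05. The invariant chain gene Cd74, which serves class II molecules and was also named afterwards, had a log2 fold change of 0.86. Of 15 GTPases induced by interferon gamma, 2 were higher, Gbp2b and Gbp4, and 0 lower; Gbp4 (log2 fold change 1.46) lost its call in 5 of 25 alternatives.

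Part of the pigmentation genes were lower in WT129. Of 26 genes for melanin synthesis and the melanosome, 8 were lower (30.8%), 1 was higher (3.85%) and 17 were not called, against backgrounds of 12.7% lower and 11.5% higher, with a median log2 fold change of -0.18. With C57BL/6 replicates 1 to 3 alone 5 were lower, and with replicates 4 to 6 alone 6. The list's summed level was 5476, 6357 and 6064 CPM in WT129 replicates 1 to 3, against 7289.6 to 10025.5 CPM (median 9151) in C57BL/6, with no overlap. Tyr encodes tyrosinase, the rate-limiting enzyme of melanin synthesis, and 129 substrains are known to include albino and chinchilla Tyr alleles. It lies at chr7:87424771-87493512 on the minus strand of GRCm38. Its level was 181, 194 and 188 CPM in WT129 replicates 1 to 3, against 451 to 523 CPM (median 498) in C57BL/6, a log2 fold change of -1.39 with SE 0.07, a 95% interval of -1.55 to -1.23 and adjusted p = 1.46e-06. Replicates agreed closely in both strains and the groups stood far apart. Its promoter on the same reference is shown because it carries the M-box core CATGTG, the site of the pigment cell factor MITF, here in capitals and ending 15 bases before the start.
Tyr, chr7:87493513-87493762, minus strand: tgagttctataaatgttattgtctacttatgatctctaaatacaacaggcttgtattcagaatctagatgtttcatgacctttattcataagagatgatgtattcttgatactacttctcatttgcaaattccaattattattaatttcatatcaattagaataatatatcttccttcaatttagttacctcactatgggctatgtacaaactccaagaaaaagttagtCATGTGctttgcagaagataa
The core, read on both strands, is in 4025 of the 32851 promoters (12.3%) and in 3742 of the 27025 genes (13.8%). It is in 7 of 21 genes of the melanin list (33.3%).

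Rab38, a small GTPase that delivers tyrosinase and its relatives to melanosomes, lies close to Tyr at chr7:88430273-88491572. It had 17.2, 14.6 and 20.8 CPM in WT129 replicates 1 to 3, against 29.6 to 53.1 CPM (median 45.6) in C57BL/6 (log2 fold change -1.27, SE 0.20, adjusted p = 0.0014). The other 6 lower members were named after their values had been seen. Rab32, which shares the role of Rab38, had a log2 fold change of -0.73 (adjusted p = 0.0201). Mlana and Pmel, of which Pmel makes the fibrils on which melanin settles, had log2 fold changes of -1.09 and -0.93. Dct and Tyrp1, the enzymes that act after tyrosinase, had log2 fold changes of -0.70 and -0.57, and the melanosome receptor Gpr143 had a log2 fold change of -0.43. Pmel lost its call in 10 of 25 alternatives and Tyrp1 in 13 of 26, and over all alternatives 5 to 9 members were lower. The member called higher was Slc24a5, an ion exchanger of pigment cells, with 146, 166 and 179 CPM in WT129 and 80.1 to 96.2 CPM (median 86.9) in C57BL/6 (log2 fold change 0.90); the annotation has 39.5% of its exon bases shared with another gene.

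Tyr and Rab38 fall in the 5 Mb window with the largest share of called genes. Of 450 windows with at least 10 genes tested, the median had 24.2% called, and only chr7:85000001-90000000 exceeded 50%, with 9 of 13 genes (69.2%). Only Prss23, a serine protease, was higher there. The lower genes were Ctsc, Fzd4, Hikeshi, Nox4, Rab38, Tmem135, Tyr and the gene model Gm44751. Fzd4, a receptor for norrin and Wnt proteins in retinal vessel growth, had 244, 229.8 and 176 CPM in WT129 replicates 1 to 3, against 256 to 354 CPM (median 301) in C57BL/6 (log2 fold change -0.51, SE 0.13, adjusted p = 0.0214). Tmem135, a mitochondrial and peroxisomal membrane protein whose mutation is known to damage the mouse retina with age, had 78.3, 83.1 and 72.2 CPM in WT129 and 88.6 to 99.9 CPM (median 98.2) in C57BL/6 (log2 fold change -0.31, SE 0.07, adjusted p = 0.0121). Ctsc lost its call in 13 of 26 alternatives. The next windows were chr8:1-5000000 with 15 of 30 genes called and chr8:15000001-20000000 with 5 of 10, each 50%. By chromosome, the share called was 18.9% on X to 27.9% on 8 and 14, with 0 of 6 genes on Y and 2 of 16 mitochondrial genes (12.5%). WT129 replicate 3 had little Y-linked Ddx3y RNA, unlike replicates 1 and 2, so the lack of calls on Y does not show equal levels.

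Loci known to vary among inbred mouse strains or substrains gave mixed results. Of 18 such genes 12 were tested, and 3 were higher (Wdfy1, Glo1 and Mx1) and 1 lower (Tyr). Wdfy1, an endosomal adaptor of Toll-like receptor signalling, had 61.2, 63 and 64.7 CPM in WT129 replicates 1 to 3, against 11.3 to 19 CPM (median 13.4) in C57BL/6 (log2 fold change 2.11, SE 0.18, adjusted p = 3.35e-05). Glo1, glyoxalase 1, which detoxifies methylglyoxal and varies in copy number among inbred strains, had 319.6, 358 and 245 CPM in WT129 and 111 to 139 CPM (median 129) in C57BL/6 (log2 fold change 1.25, SE 0.12, adjusted p = 8.38e-05). For both, all WT129 libraries lay above all C57BL/6 libraries. The pink-eyed dilution gene Oca2 had a log2 fold change of -0.22 (adjusted p = 0.174), with a 95% interval of -0.47 to 0.02. Gabra2, a GABA receptor subunit whose expression is known to be reduced in C57BL/6J, had a log2 fold change of 1.25 (adjusted p = 0.162). Casp4, an inflammatory caspase known to be defective in 129 mice, had a log2 fold change of 0.81 (adjusted p = 0.327). Crb1, a polarity gene, is mutated in the C57BL/6N substrain, while the mice used here are C57BL/6J by genotype. It had a log2 fold change of -0.11 (adjusted p = 0.922). The adult beta-globin genes Hbb-bs and Hbb-bt had log2 fold changes of 0.21 and -0.62 and were not called. Nnt, whose C57BL/6J allele is known to lack exons, stood on 2 lines of each table and was not joined. Its first line held 2, 20 and 40 reads in WT129 replicates 1 to 3, against 2 to 21 reads in C57BL/6.

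Of 27 outer segment uptake genes tested, 5 were higher (18.5%) and 4 lower (14.8%), near the 11.5% and 12.7% of all genes, with a median log2 fold change of -0.03. Of the receptors that the series deletes elsewhere, Mertk, the kinase that triggers engulfment, had 139, 149 and 88.2 CPM in WT129 replicates 1 to 3, against 112 to 148 CPM (median 122) in C57BL/6, a log2 fold change of -0.03 and an exact two-sided permutation p of 0.881. Its 95% interval was -0.39 to 0.33. Itgb5, the integrin chain that binds outer segments, had 160.0, 189 and 135 CPM in WT129 and 156 to 194 CPM (median 183) in C57BL/6 (log2 fold change -0.18, exact permutation p = 0.179). Tyro3, a kinase of the Mertk family, was lower in WT129. It had 94.8, 61.7 and 80.2 CPM in WT129 and 117 to 157 CPM (median 129.9) in C57BL/6, with no overlap (log2 fold change -0.77, SE 0.14, adjusted p = 0.00328), and the exact two-sided permutation test gave p = 0.0119, as low as groups of this size permit.

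The uptake genes called higher were Becn1, an autophagy protein used in phagosome maturation, with a log2 fold change of 0.81, the engulfment receptor Megf10 (log2 fold change 1.83), Elmo1, which activates Rac in engulfment (log2 fold change 1.30), the tetraspanin Cd81 (log2 fold change 0.28) and Pros1 (log2 fold change 0.72). Pros1 and Gas6 are the proteins that bridge exposed membranes to Mertk, and Gas6 was lower (log2 fold change -0.41), as was the integrin chain Itgav (log2 fold change -0.37). All of these but Becn1 were named after their values had been seen, and the calls of Pros1, Gas6, Itgav, Elmo1 and Cd81 were lost in 4 of 26, 12 of 25, 8 of 25, 11 of 25 and 7 of 25 alternatives. Becn1 shares 43.9% of its exon bases with another gene. Lamp2, a lysosomal membrane protein, was lower, with 353, 279 and 403 CPM in WT129 replicates 1 to 3 and 493 to 557 CPM (median 517) in C57BL/6 (log2 fold change -0.61, SE 0.11, adjusted p = 0.00335).

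Genes of RPE identity and transport were called lower more often than all genes were. Of 30 tested, 11 were lower (36.7%, against 12.7% of all genes) and 2 higher (6.67%, against 11.5%), with a median of -0.32, and the summed level was 13163, 13042 and 10885 CPM in WT129 replicates 1 to 3, against 15080.4 to 18144 CPM (median 15969) in C57BL/6. Enpp2, the secreted enzyme autotaxin, had 1913, 1486 and 1521 CPM in WT129 and 3417 to 4579 CPM (median 3839) in C57BL/6 (log2 fold change -1.25, SE 0.12, adjusted p = 7.95e-05). Cldn19, a claudin of the RPE tight junction, named after its value had been seen, had 6.93, 13.5 and 18.7 CPM in WT129 and 26.8 to 74.6 CPM (median 53.2) in C57BL/6 (log2 fold change -1.97, SE 0.36, adjusted p = 0.00393). The 2 higher members were Kcnj13, the apical potassium channel, with 246, 244 and 172 CPM in WT129 and 90.3 to 115 CPM (median 100.3) in C57BL/6 (log2 fold change 1.12), and the amino acid transporter Slc6a20a, with 445, 443 and 428 CPM in WT129 and 238 to 312 CPM (median 272) in C57BL/6 (log2 fold change 0.69). Kcnj13 shares 49.1% of its exon bases with another gene. The count of lower members ranged from 7 to 11 with a library left out, and it was 7 against C57BL/6 replicates 1 to 3 and 7 against replicates 4 to 6 alone.

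Among 17 visual cycle genes tested, 1 was higher (5.88%, against 11.5% of all genes) and 3 were lower (17.6%, against 12.7%). Rlbp1, the protein that carries 11-cis-retinal, had 1671, 1754 and 1124 CPM in WT129 replicates 1 to 3, against 1970.2 to 3233 CPM (median 2340.4) in C57BL/6 (log2 fold change -0.72, SE 0.18, adjusted p = 0.0183); it was named after its value had been seen. Rdh11 and Dhrs3, retinol and retinal dehydrogenases, had log2 fold changes of -0.54 and -0.40. Rbp4, the retinol carrier of plasma, was higher at a low level, with 2.81, 2.99 and 5.17 CPM in WT129 and 0.728 to 1.51 CPM (median 1.24) in C57BL/6 (log2 fold change 1.31).

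**Figure D3:**
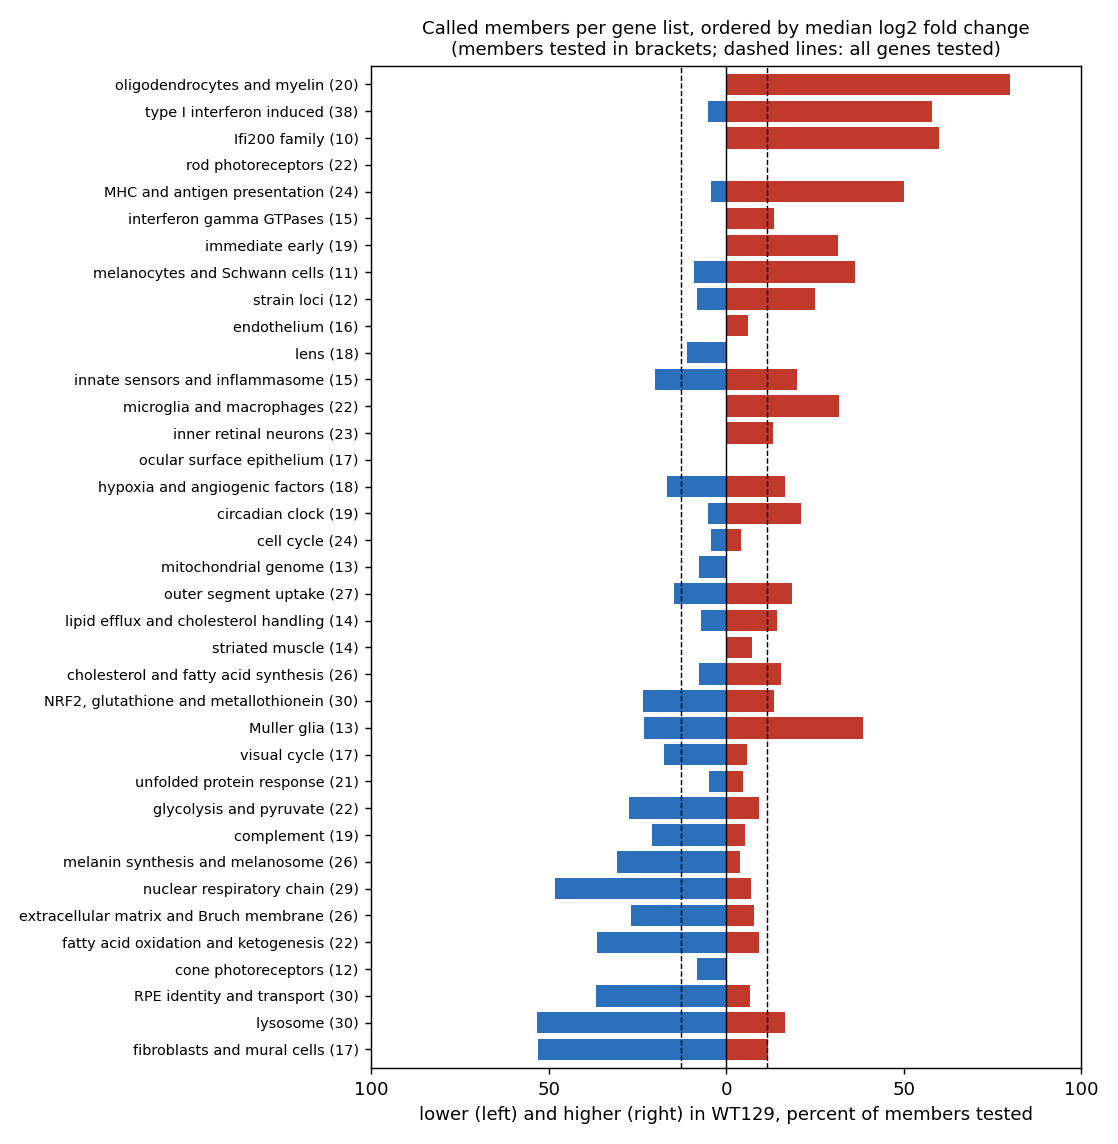
Share of each gene list's tested members called lower (blue bars, left) and higher (red bars, right) in 3 WT129 against 6 C57BL/6 libraries, in percent, with lists ordered by median log2 fold change and the number tested in brackets. Dashed lines mark the share of all genes tested, 12.7% lower and 11.5% higher. Among the lists that pass them are the interferon, Ifi200, MHC and oligodendrocyte lists on the right. The lysosome, respiratory chain and fibroblast lists are among those that pass on the left.

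Lysosomal genes were lower in WT129 for 16 of 30 tested (53.3%) and higher for 5 (16.7%), with a median of -0.34. The count of lower members was 10 against C57BL/6 replicates 1 to 3 alone, 8 against replicates 4 to 6 alone, and 13 without WT129 replicate 3. In a fit of protein-coding genes with under 1% of exon bases shared, 11 members were lower and 1 higher. The sum was 8783, 9064 and 7202 CPM in WT129 replicates 1 to 3, against 10246 to 11403 CPM (median 10977) in C57BL/6, with no overlap. Lipa, which splits cholesteryl esters in the lysosome, had 67.4, 64.3 and 72.2 CPM in WT129 and 113 to 143 CPM (median 134) in C57BL/6 (log2 fold change -0.94, SE 0.09, adjusted p = 9.38e-05). Psap, the precursor of the saposins, and the protease gene Ctsb, both named after their values had been seen, had log2 fold changes of -0.65 and -0.50. The opposite direction was seen in Npc1, which moves cholesterol out of lysosomes. It had 122, 116 and 128 CPM in WT129 and 27.9 to 43.9 CPM (median 33.8) in C57BL/6 (log2 fold change 1.84, SE 0.13, adjusted p = 1.17e-05), and the groups stood far apart.

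Cholesterol and lipid genes outside the lysosome were largely not called. In lipid efflux and cholesterol handling, 2 of 14 were higher and 1 lower. Lcat, which esterifies cholesterol on lipoproteins, and Cyp27a1, a sterol hydroxylase, had log2 fold changes of 1.79 and 0.69, and the cholesterol exporter Abca1 had a log2 fold change of -0.35, a call lost in 14 of 26 alternatives. In the synthesis of cholesterol and fatty acids, 4 of 26 were higher and 2 lower, near the shares of all genes. The balance turned with the control libraries, with 1 higher and 6 lower against C57BL/6 replicates 1 to 3 alone and 2 higher and 0 lower against replicates 4 to 6 alone. The lower members were Srebf1, a regulator of lipid synthesis, and Insig1, its inhibitor at the endoplasmic reticulum, with log2 fold changes of -0.44 and -0.55, while the desaturase gene Scd2 was higher, with a log2 fold change of 0.52.

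Of 22 genes tested for fatty acid oxidation and ketogenesis, 8 were lower (36.4%, against 12.7% of all genes) and 2 higher (9.09%, against 11.5%), with a median of -0.27. Eci1, an isomerase of the mitochondrial pathway, had 66.2, 60.1 and 49.6 CPM in WT129 replicates 1 to 3, against 102 to 143 CPM (median 127) in C57BL/6 (log2 fold change -1.11, SE 0.13, adjusted p = 0.000215). Decr1, which handles unsaturated chains, had a log2 fold change of -0.80. Acadvl, the first dehydrogenase for long chains, was higher (log2 fold change 0.55) and shares 42.9% of its exon bases with another gene. Without WT129 replicate 3 the count of lower members was 5, against C57BL/6 replicates 1 to 3 alone 6, and against replicates 4 to 6 alone 2.

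Nuclear genes of the respiratory chain had 14 of 29 members lower (48.3%) and 2 higher (6.90%), with a median of -0.24. Their sum was 4054, 4021 and 3900.5 CPM in WT129 replicates 1 to 3, against 4393 to 4889.6 CPM (median 4708) in C57BL/6. Cox7c, of cytochrome oxidase, and Uqcrfs1, the iron-sulfur protein of complex III, had log2 fold changes of -0.54 and -0.63. Cox5a was higher (log2 fold change 1.59) and shares 12.8% of its exon bases. Against C57BL/6 replicates 4 to 6 alone, 5 members were lower, against replicates 1 to 3 alone 8, and with single libraries left out 9 to 15.

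The mitochondrial genome encodes 13 proteins of the same chain, and 12 of their genes were not called. Their sum was 36127, 34086 and 64140.3 CPM in WT129 replicates 1 to 3, against 38290 to 51062 CPM (median 41750.6) in C57BL/6, and their median log2 fold change was 0.28 against C57BL/6 replicates 1 to 3 alone and -0.53 against replicates 4 to 6 alone. The exception was mt-Nd6, the protein gene carried on the light strand, with 301, 258 and 492 CPM in WT129 replicates 1 to 3, against 1637 to 2231 CPM (median 1765) in C57BL/6 (log2 fold change -2.45, SE 0.20, adjusted p = 2.69e-05). The proline transfer RNA gene mt-Tp, which is carried on the light strand too, had 0.515, 1.66 and 1.74 CPM in WT129 and 15.6 to 25.9 CPM (median 20.9) in C57BL/6 (log2 fold change -3.65, SE 0.27, adjusted p = 1.66e-05). Both lie antisense to transcripts of the heavy strand. Whether reads were counted by strand in either table is not given in the sources used here.

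In glycolysis and pyruvate use, 6 of 22 genes were lower (27.3%) and 2 higher, and 3 were lower against either set of 3 C57BL/6 libraries alone. The largest of the 6 falls was that of the enolase gene Eno1, named after its value had been seen. Its reads may be split with its near-identical copy Eno1b, given below, which was higher in WT129. Mpc1, a subunit of the carrier that brings pyruvate into mitochondria, had 47.2, 45.8 and 41.7 CPM in WT129 replicates 1 to 3, against 4.96 to 7.62 CPM (median 7.12) in C57BL/6 (log2 fold change 2.64, SE 0.14, adjusted p = 2.2e-06), with 23.1% of its exon bases shared. Ldhb, a lactate dehydrogenase subunit, and Pdk2, which restrains pyruvate dehydrogenase, had log2 fold changes of -0.53 and -0.60. Among hypoxia and vessel factor genes, 3 of 18 were higher and 3 lower, with 7 higher against C57BL/6 replicates 1 to 3 alone, the lower ones being Epas1, a hypoxia-inducible factor, and the growth factors Vegfb and Vegfc, with log2 fold changes of -0.55, -0.74 and -0.79.

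Of 30 genes tested for the NRF2 response, glutathione and metallothioneins, 7 were lower (23.3%, against 12.7% of all genes) and 4 higher (13.3%, against 11.5%). With C57BL/6 replicates 1 to 3 alone 5 were lower and 2 higher, and with replicates 4 to 6 alone 2 and 3. Gpx3, a secreted glutathione peroxidase, had 46.5, 53.3 and 99.8 CPM in WT129 replicates 1 to 3, against 228 to 585 CPM (median 468) in C57BL/6 (log2 fold change -2.74, SE 0.32, adjusted p = 0.000281), with no overlap. The quinone reductase Nqo1 and catalase, Cat, both named after their values had been seen, had log2 fold changes of -0.84 and -0.50. Gstm5, a glutathione transferase, was higher, with a log2 fold change of 0.78. Mt2, a metallothionein, had 301, 257 and 168 CPM in WT129 and 1.72 to 10.4 CPM (median 3.81) in C57BL/6 (log2 fold change 5.73), and 73.5% of its exon bases are shared with another gene. Of 21 genes of the unfolded protein response, 1 was higher (Hsp90b1, log2 fold change 0.54) and 1 lower (Hyou1, log2 fold change -0.41), both chaperones of the endoplasmic reticulum.

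Immediate early genes respond within minutes to stimuli and to dissection. Of 19 tested, 6 were higher (31.6%, against 11.5% of all genes) and 0 lower (against 12.7%), with a median of 0.65. Their sums overlapped, at 1069, 566 and 808 CPM in WT129 replicates 1 to 3, against 353 to 640 CPM (median 523) in C57BL/6. WT129 replicate 2 was the lowest of its group in 4 of the 6 called members. Dusp1, a phosphatase that ends MAP kinase signals, had 112, 48.7 and 58 CPM in WT129 replicates 1 to 3, against 13 to 28.7 CPM (median 22) in C57BL/6 (log2 fold change 1.71, SE 0.32, adjusted p = 0.00408). The transcription factor genes Fosb and, named after their values had been seen, Atf3 and Fos had log2 fold changes of 2.00, 1.75 and 1.35. Jund (log2 fold change 1.35) shares 52.6% of its exon bases. In the circadian clock, 4 of 19 were higher and 1 lower, with 4 and 0 against C57BL/6 replicates 1 to 3 alone and 2 and 3 against replicates 4 to 6 alone. Nr1d1, a repressor of the clock loop, and the clock output gene Dbp had log2 fold changes of 0.79 and 0.92, and Hlf, a relative of Dbp, had a log2 fold change of -0.35.

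Of 19 complement genes, 4 were lower (21.1%, against 12.7% of all genes) and 1 was higher (5.26%, against 11.5%). The higher one was C3, the central component, with 42.5, 22.4 and 28.7 CPM in WT129 replicates 1 to 3, against 4.72 to 12.3 CPM (median 5.47) in C57BL/6 (log2 fold change 2.20, SE 0.30, adjusted p = 0.000667). C1ra and C1s1, the proteases of the first component, had log2 fold changes of -1.07 and -1.34. Of 15 innate sensors and inflammasome genes, 3 were higher (20%) and 3 lower (20%). Gsdme, a pore-forming gasdermin, had 1.36, 2.37 and 2.11 CPM in WT129 and 9.60 to 23.6 CPM (median 13.5) in C57BL/6 (log2 fold change -2.63, SE 0.29, adjusted p = 0.000173), while the receptor gene Tlr2 and the cytokine gene Il18 were higher, with log2 fold changes of 1.06 and 0.55.

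Markers of other cell types were read next, since RPE is peeled from an eye that holds retina, choroid and lens. In these bulk samples, a difference in the number of cells of a type and a difference in RNA per cell cannot be told apart. Of 22 microglia and macrophage genes, 7 were higher and 0 lower, and the sums overlapped, at 616, 583 and 597 CPM in WT129 replicates 1 to 3, against 436 to 599 CPM (median 499) in C57BL/6. P2ry12 and Ctss had log2 fold changes of 2.17 and 0.92. Without WT129 replicate 3 the count of higher members was 4, and against C57BL/6 replicates 4 to 6 alone it was 3. Microglia also make interferon-induced and class I RNA, and their part in those results was not tested.

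Of all lists, that of myelin and oligodendrocyte genes had the highest median. This list of 20 such genes was added after values had been seen and gets no test. In it 16 members were called higher and 0 lower, with a median log2 fold change of 5.37. Its sum was 17646, 10149.7 and 18244 CPM in WT129 replicates 1 to 3, against 1659 to 3803 CPM (median 2761) in C57BL/6. Mobp, a myelin protein of oligodendrocytes, had 2190.2, 1195 and 2059 CPM in WT129 and 1.83 to 241 CPM (median 8.03) in C57BL/6 (log2 fold change 7.03, SE 1.26, adjusted p = 0.00345). The highest C57BL/6 value was that of replicate 4, and no WT129 library came near it. WT129 replicate 2 was the lowest of its group in 16 of the 16 called members, as it was for the interferon genes.

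Further genes of this kind were higher as well. Mbp had 5386, 3326 and 4522 CPM in WT129 replicates 1 to 3, against 91 to 854 CPM (median 158) in C57BL/6 (log2 fold change 4.47). Mog, Mag, Cldn11 and Ugt8a, all of the myelin sheath, had log2 fold changes of 6.31, 6.26, 6.62 and 6.67. Gpr17, a receptor of oligodendrocyte precursors, had a log2 fold change of 6.23, the lineage factor Olig2 had a log2 fold change of 4.89, and Hapln2, of the node of Ranvier, had a log2 fold change of 4.82. The glial calcium-binding protein S100b had a log2 fold change of 1.51. Bc1, a noncoding RNA of neurons, had 131, 148 and 82.5 CPM in WT129 and 0.310 to 0.993 CPM (median 0.745) in C57BL/6 (log2 fold change 6.65). Levels in the 3 Itgb5-/- libraries of the same table as WT129 were 1016 to 3072 CPM for Mobp.

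Astrocyte and Muller glia genes were split, with 5 of 13 higher and 3 lower, Rlbp1 among the lower ones, and a median log2 fold change of -0.09. Their sums overlapped, at 12975, 13321 and 12097 CPM in WT129 replicates 1 to 3, against 13093 to 15733 CPM (median 14516) in C57BL/6. Gfap, the filament of astrocytes and reactive Muller glia, had 909.6, 685 and 975 CPM in WT129 replicates 1 to 3, against 19 to 94.1 CPM (median 37.7) in C57BL/6 (log2 fold change 4.37, SE 0.44, adjusted p = 0.000123). Kcnj10, a glial potassium channel, had 98.9, 75.9 and 117 CPM in WT129 and 2.00 to 21.3 CPM (median 7.44) in C57BL/6 (log2 fold change 3.71, SE 0.65, adjusted p = 0.00317). Vim and, named after its value had been seen, the water channel Aqp4 had log2 fold changes of 1.00 and 1.71. The mouse retina holds no myelin, and the optic nerve behind the globe does, as background. Whether nerve tissue was taken with these samples is not given in the sources used here.

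Photoreceptor RNA was present in all libraries. Against C57BL/6 replicates 1 to 3 alone, 10 of 22 rod genes were higher (median log2 fold change 1.78), and against replicates 4 to 6 alone 0 were (median 0.02). With all 6, limma called 0 (3 at an unadjusted p below 0.05, 0 with edgeR and 2 with DESeq2), although their median log2 fold change was 0.88, with sums of 10726, 25175 and 12195 CPM in WT129 replicates 1 to 3, against 2429.6 to 19319.8 CPM (median 7105) in C57BL/6. Of 12 cone genes 1 was lower, the cone phosphodiesterase Pde6c (log2 fold change -1.35). Of 23 genes of inner retinal neurons, 5 were higher against C57BL/6 replicates 1 to 3 alone and 1 against replicates 4 to 6 alone, and with all 6 there were 3: the glycine transporter Slc6a9 (log2 fold change 0.85), the amacrine cell factor Tfap2a (log2 fold change 0.62) and Pcp2 (log2 fold change 2.03), of which Slc6a9 and Pcp2 share 30.2% and 51.5% of their exon bases. The lens list had 2 of 18 lower, and its sums also overlapped, at 3386, 17669.8 and 7555 CPM in WT129 and 1387 to 10550.4 CPM (median 6542) in C57BL/6. Its lower members included Bfsp2, a lens beaded filament gene that is known to carry a deletion in 129 strains, with 3.61, 9.32 and 5.90 CPM in WT129 and 23.6 to 98.3 CPM (median 59.1) in C57BL/6 (log2 fold change -3.10, SE 0.44, adjusted p = 0.000974). Lim2, a lens membrane protein, had no read in WT129, against 9.95 to 85.7 CPM (median 53) in C57BL/6.

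Of 17 fibroblast and mural cell genes, 9 were lower (52.9%) and 2 higher, with a median of -0.68. Dcn, the matrix proteoglycan decorin, had 62.3, 93 and 86.9 CPM in WT129 replicates 1 to 3, against 136 to 228 CPM (median 206) in C57BL/6 (log2 fold change -1.29, SE 0.18, adjusted p = 0.000684), and Fbln1, of elastic fibres, had a log2 fold change of -1.60. Tagln, of smooth muscle, was higher, with a log2 fold change of 4.26, with 67.9% of its exon bases shared. The count fell to 3 to 5 lower members when any WT129 library was left out and to 2 against C57BL/6 replicates 1 to 3 alone. Among 26 genes of the matrix and Bruch membrane, 7 were lower and 2 higher. Timp3, an inhibitor of matrix proteases made by the RPE, had 5029, 4878 and 4393 CPM in WT129 and 2589 to 3438 CPM (median 2726) in C57BL/6 (log2 fold change 0.75, SE 0.12, adjusted p = 0.00145), with 21.3% of its exon bases shared. Col18a1 and Nid2, both of basement membranes, were lower, with log2 fold changes of -0.83 and -0.56. Of 17 ocular surface and 7 erythroid genes, limma called 0 and 0 (1 and 0 at an unadjusted p below 0.05, 0 and 0 with edgeR, 1 and 0 with DESeq2), 1 of 14 striated muscle genes was higher, and 1 of 24 cell cycle genes was called in each direction (Bub1b higher, log2 fold change 0.49, and Pcna lower, log2 fold change -0.63). Of 16 endothelial genes 1 was higher, Vwf (log2 fold change 0.86), whose call was lost in 9 of 26 alternatives. Against C57BL/6 replicates 1 to 3 alone 7 endothelial genes were higher (median 0.86), and against replicates 4 to 6 alone 0 were higher and 1 lower (median 0.01). For the cell cycle 5 genes were lower against C57BL/6 replicates 1 to 3 alone and 1 against replicates 4 to 6. Reads of Pcna may be split with its pseudogene Pcna-ps2, which was higher in WT129 and is given below. Lymphocytes and granulocytes had 3 of 6 genes lower, the mast cell proteases Cma1, Cpa3 and Tpsb2, with log2 fold changes of -1.15, -1.02 and -0.92. Their levels were low, with Cpa3 at 0.842 to 1.54 CPM in C57BL/6. In this list 1 gene was lower against C57BL/6 replicates 1 to 3 alone and 0 against replicates 4 to 6 alone, and edgeR called 1 and DESeq2 3. The calls of Cma1, Cpa3 and Tpsb2 were lost in 1, 4 and 14 of 25 alternatives.

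**Figure D4:**
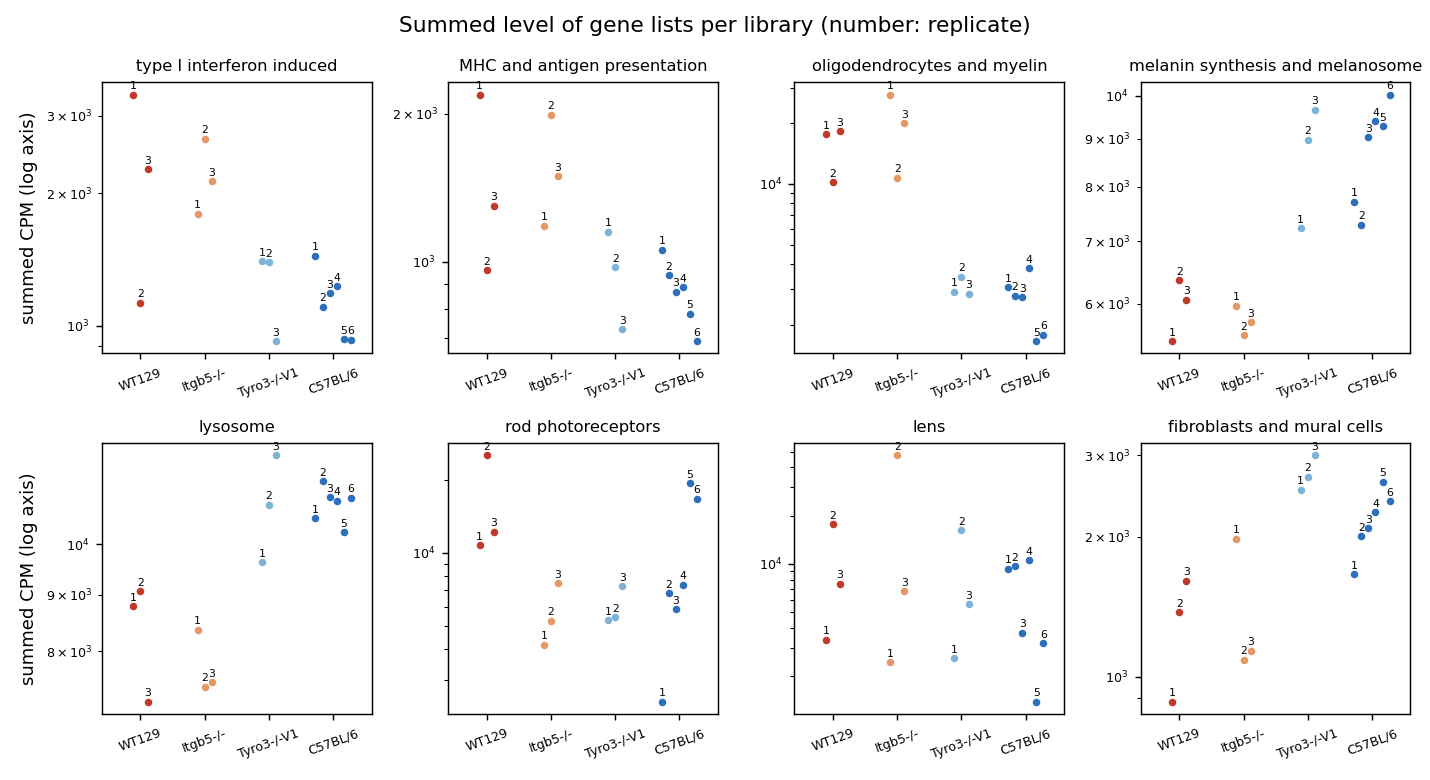
Summed CPM of 8 gene lists (vertical axes, log scale) in each library of WT129, Itgb5-/-, Tyro3-/-V1 and C57BL/6, with the replicate number beside each point. The oligodendrocyte list stands at 10149.7 to 18244 CPM in WT129 and at 1659 to 3803 CPM in C57BL/6, the melanin and lysosome lists do not overlap between WT129 and C57BL/6, and WT129 replicate 2 is low for interferon genes and high for rods and lens.

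Beside the myelin genes, the largest differences included genes read in one strain only. With at most 3 reads in every library of a strain and at least 1 CPM in every library of the other, 58 genes were on in WT129 and 66 in C57BL/6. The same rule gave 0 and 0 genes between C57BL/6 replicates 4 to 6 and 1 to 3, and 1 and 1 between Itgb5-/- and WT129. The 66 genes on in C57BL/6 were 29 antisense or long intergenic RNAs, 14 protein-coding genes and 11 pseudogenes among other types, and 2 of them share over 50% of their exon bases with another gene. The 58 on in WT129 were 26 protein-coding genes, 19 pseudogenes and 6 antisense or long intergenic RNAs, and 28 share over 50% of their exon bases.

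Of genes on in C57BL/6 alone, Qser1 had 0 reads in WT129, against 51.7 to 59.5 CPM (median 55) in C57BL/6, at least 1239-fold lower with a floor of 3 reads over the group. Lim2 was at least 1155-fold lower and Fer1l5, a ferlin, with 0 reads in WT129 and 10.2 to 14.6 CPM (median 11.4) in C57BL/6, at least 267-fold lower. H60c, a ligand of the NKG2D receptor of natural killer cells, was among the largest falls but did not meet the on-off rule. It had 0.328, 0.291 and 0 CPM in WT129 replicates 1 to 3, against 23 to 113 CPM (median 62.9) in C57BL/6 (log2 fold change -6.30, SE 0.44, adjusted p = 1.45e-05). Trim12a, of the Trim5 family of antiviral proteins, had 0.0469, 0.0416 and 0.137 CPM in WT129 and 20.3 to 31.9 CPM (median 23.9) in C57BL/6 (log2 fold change -5.45, SE 0.17, adjusted p = 9.51e-08). No library of either strain came near the other in these genes. For them too, a difference between the strains and one in how the tables counted or named genes cannot be told apart.

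Further large falls were those of Rec8, a meiotic cohesin subunit (log2 fold change -4.06), Pbp2 (log2 fold change -4.26), Snx31, a sorting nexin (log2 fold change -4.26), Glp2r, the receptor for glucagon-like peptide 2 (log2 fold change -4.21), Slc26a4, the anion exchanger pendrin (log2 fold change -3.47), and Firre, a long noncoding RNA of the X chromosome (log2 fold change -3.56). Slc26a4 had 1.73, 4.62 and 3.39 CPM in WT129 replicates 1 to 3, against 22.6 to 58.4 CPM (median 40.1) in C57BL/6, and Firre had 8.01, 13.6 and 13.3 CPM in WT129 and 111 to 182 CPM (median 131) in C57BL/6. Il4 and Gp1ba, a cytokine and a platelet receptor, were named as on-off genes at low levels, with 2.44 to 4.56 CPM and 1.44 to 3.71 CPM in C57BL/6 and at most 0.0416 and 0.125 CPM in WT129.

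Of genes on in WT129, Ilk, the integrin-linked kinase, had 78.3, 98.8 and 85.7 CPM in WT129 replicates 1 to 3, against 0 to 0.111 CPM (median 0) in C57BL/6. Med10, a Mediator subunit, had 21.1, 19.8 and 24.4 CPM in WT129 and 0 reads in C57BL/6, at least 908-fold higher, and Tnnc2, a muscle troponin, had 11.7, 18.7 and 29.1 CPM in WT129 and 0 reads in C57BL/6, at least 827-fold higher. Slirp, a mitochondrial RNA-binding protein, had 17.5, 15.5 and 16.8 CPM in WT129 and 0 to 0.0662 CPM (median 0.0360) in C57BL/6. All 4 share most of their exon bases with another annotated gene: 89.7% for Ilk, 92.8% for Med10, 74% for Tnnc2 and 97.8% for Slirp. Gnas, the stimulatory G protein subunit, with 758, 784 and 697 CPM in WT129 and 8.12 to 12.8 CPM (median 9.13) in C57BL/6 (log2 fold change 6.18), shares 22%. Myom2, a muscle sarcomere protein, had 100.3, 95.5 and 55.8 CPM in WT129 and 0.265 to 1.69 CPM (median 0.999) in C57BL/6 (log2 fold change 5.85). Eno1b, a near-identical copy of the enolase gene Eno1, had 126, 165 and 85.8 CPM in WT129 and 0.0376 to 0.575 CPM (median 0.288) in C57BL/6 (log2 fold change 7.30), and its reads may be split with Eno1.

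Over all genes with a position, the share called higher grew with the share of exon bases that a gene has in common with another gene on either strand. Among 11346 genes with under 1% shared, 8.38% were higher and 13.7% lower, and among 4335 genes with 1% to 25% shared, 12.8% and 11.1%. Of 640 genes with 25% to 50%, 39.4% were higher and 7.97% lower. Of 174 genes with 50% to 75%, the shares were 49.4% and 9.20%, and of 72 genes with over 75% they were 77.8% and 4.17%. Processed pseudogenes had 243 of 771 higher and 21 lower, while protein-coding genes had 1461 of 14325 higher and 1806 lower. Among the 9760 protein-coding genes with under 1% of exon bases shared, 2021 (20.7%) were called, 655 higher (6.71%) and 1366 lower (14%). Whether the tables were counted in different ways cannot be told apart from the strains.

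**Figure D5:**
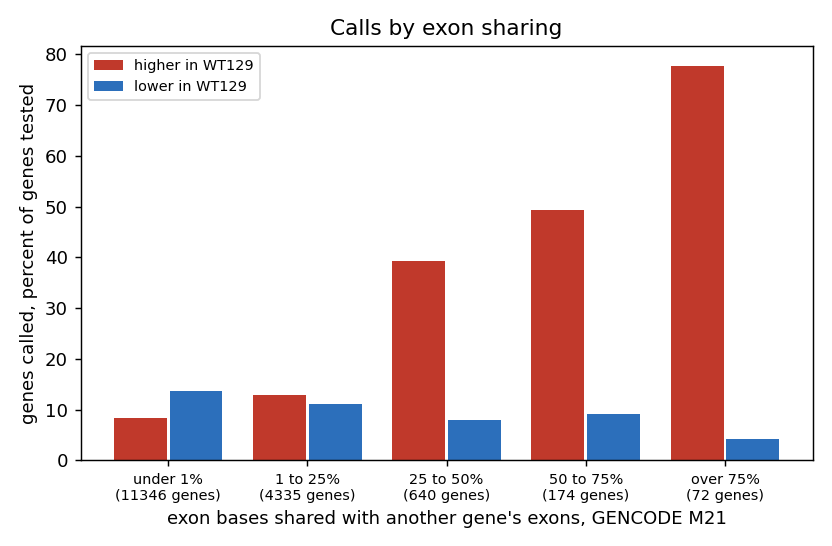
Percent of genes called higher (red) and lower (blue) in 3 WT129 against 6 C57BL/6 libraries (vertical axis), by the share of a gene's exon bases that lie in another gene as well (horizontal axis). The share called higher is 8.38% among genes with under 1% shared and 77.8% among those with over 75%, while the share called lower is 13.7% and 4.17%.

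Sharing was low in many of the genes described above. The interferon genes Gbp2b, Ifi44, Ifi44l, Mx1 and Xaf1 have 0%, 0%, 0%, 0% and 0% of exon bases shared. Tyr has 0%, Rab38 0%, Wdfy1 1.94%, Npc1 5.31% and Gpx3 0%.

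Genes called in Tyro3-/-V1 against C57BL/6 in the same table were set beside the WT129 levels. The 2 comparisons share their C57BL/6 libraries, so the levels are given side by side and are not counted as a match. Eif3j2, an initiation factor subunit, had 12.9, 12.4 and 21.6 CPM in WT129 replicates 1 to 3, 15.8 to 17.4 CPM in Tyro3-/-V1 and 1.17 to 3.02 CPM (median 2.37) in C57BL/6. Its near-identical copy Eif3j1 had 19.5, 16.4 and 25.3 CPM in WT129, 18.7 to 21.9 CPM in Tyro3-/-V1 and 34.7 to 40.7 CPM (median 37.2) in C57BL/6. Both genes stood near the WT129 level in Tyro3-/-V1, and reads may be split between them.

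The pseudogene Pcna-ps2 had 7.17, 7.24 and 7.28 CPM in WT129, 8.07 to 13.3 CPM in Tyro3-/-V1 and 0.488 to 1.87 CPM (median 1.04) in C57BL/6. Tgm3, a transglutaminase, had 2.81, 6.65 and 4.30 CPM in WT129, 1.53 to 2.07 CPM in Tyro3-/-V1 and 0.111 to 0.359 CPM (median 0.180) in C57BL/6. AA467197 had 1.55, 0.499 and 1.42 CPM in WT129, 0.236 to 0.527 CPM in Tyro3-/-V1 and 4.77 to 12.6 CPM (median 7.21) in C57BL/6. In these 3 genes both WT129 and Tyro3-/-V1 lay outside the C57BL/6 range on the same side. Lum, the proteoglycan lumican, had 5.29, 8.65 and 13.3 CPM in WT129, 30.8 to 44.8 CPM in Tyro3-/-V1 and 12.4 to 21 CPM (median 18.2) in C57BL/6. Mzt1, of the microtubule nucleating complex, had 37.6, 34.6 and 45.3 CPM in WT129, 65.9 to 71.8 CPM in Tyro3-/-V1 and 46.3 to 53.7 CPM (median 48.3) in C57BL/6. For both, Tyro3-/-V1 lay above the C57BL/6 range, while WT129 lay below it for Mzt1 and overlapped its lower end for Lum. The gene model Gm3650 was under the level filter.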

How the data were processed

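RNA was purified from RPE on columns and libraries followed an Illumina paired-end protocol, per the labels. STAR and DESeq2 are named in the submitters' processing notes, with GRCm38 and mm10 but no tool version. For each gene the authors deposited a normalized count, a signal scaled per library, in 2 separate tables. Divided by the smallest step of each library, 100% of the values above 0 were whole reads within 0.001 read, with size factors of 0.924 to 1.09 in WT129 and 0.541 to 1.07 in C57BL/6. No gene name stands on 240 of 55573 lines in the C57BL/6 table and on 3096 of 55421 lines in the WT129 table. These hold 1.12% to 1.15% of the reads in WT129 and 0.0151% to 0.0174% in C57BL/6 and were left out, as were names on several lines.

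Reads were summed per library over the joined genes to give CPM. Genes with at least 1 CPM in at least 3 libraries were tested with limma 3.58.1 in R 4.3.3 (trend and robust) on log2(CPM + 0.5), 3 WT129 against 6 C57BL/6 libraries, two-sided, with Benjamini-Hochberg adjustment and a threshold of 0.05. Since the tables were normalized apart, levels are relative to the other genes of a library. On the recovered reads, edgeR 4.0.16 called 3838 genes and DESeq2 1.42.0 called 4848. P-values measure the spread between these libraries only. No pair of replicates was a duplicate, with a chi-square per gene of 11.0 to 134. Positions, gene types and shared exon bases came from GENCODE M21 on GRCm38, matched for 16564 of 16749 genes, and promoter sequences from RefSeq on GRCm38.p6. The steps were tested on simulated data, where 69 of 100 genes changed 2-fold and 96 of 100 changed 4-fold were called, with 6 false calls. No difference between tables, cell types or sets of C57BL/6 libraries was simulated, so this says nothing about those.

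The comparison, its members and the 41 gene lists were chosen with earlier results of these data known, and 1 list, for oligodendrocytes and myelin, after these values were seen. Genes were named by rule: the 12 largest rises and falls with a mean of at least 10 CPM and no overlap, the 6 highest on-off genes per direction (gene models and pseudogenes left out), up to 3 called members per list by smallest p, all strain loci, targeted genes and genes called in Tyro3-/-V1, and the called genes of the 3 windows of 5 Mb with the largest share called. Others are marked as named after their values had been seen. Not every gene that the rule allows is described, and some are not reported here.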

Additional observations from a re-analysis of the deposited data

Results flagged for a closer look

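Among the 6 C57BL/6 libraries, a value was marked where the highest or lowest library stood apart by a share of the whole range above the 95% limit of Dixon. That was so for 22 of 215 named genes and list sums, where chance marks about 1 in 20 groups, and replicate 4 was the high library in 11 of the 22.

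In C57BL/6 replicate 4 these were myelin and glial lineage genes: Mbp at 854 CPM with the next library at 201 CPM, Mobp at 241 and 32.4 CPM, Mag at 24.3 and 4.77 CPM, Cldn11 at 26.3 and 6.42 CPM, and Mog at 9.70 and 2.45 CPM. Ugt8a stood at 5.25, Gpr17 at 1.01, Hapln2 at 1.29 and Olig2 at 0.862 CPM in that library. The sum of the melanocyte and Schwann cell list, which holds genes of myelin, was 1931 CPM there and at most 914 CPM in the others. Complement C3 was 12.3 CPM in replicate 4 and at most 5.82 CPM in the others. WT129 levels of all these genes lay above this library as well.

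In C57BL/6 replicate 1, Mpc1 was low at 4.96 CPM, Dcn was low at 136 CPM, with the next library at 203 CPM, and Tap2 was high at 18.1 CPM. In C57BL/6 replicate 2, Fosb was high at 3.46 CPM, Epas1 at 1234 CPM and the RPE identity sum at 18144 CPM. In C57BL/6 replicate 5, Hlf was high at 247 CPM, Ifi44 was high at 3.28 CPM and Itgb5 was low at 156 CPM. In C57BL/6 replicate 3, Cpa3 was high at 1.54 CPM, and Ifi44l, with 0 CPM in the other 5 libraries, was 0.0376 CPM.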

How the results depend on the processing

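Over 26 alternatives, of which 3 were chosen after seeing the data, 163 called genes named in the text, Eno1 not included, gave 4146 values. Of these values, 3910 kept direction and call, 236 lost the call and 0 turned. The calls lost most often were those of Tpsb2 and Abca1 (14 alternatives each), Tyrp1 and Ctsc (13 each), Pcp2, Mzt1 and Gas6 (12 each), Elmo1 (11) and Pmel, Bub1b and Pde6c (10 each). The count of all called genes ranged from 1842 to 5087. Against C57BL/6 replicates 4 to 6 only it was 2304 (1184 higher, 1120 lower), and in a fit of protein-coding genes with under 1% of exon bases shared, which tests fewer genes, it was 1842 (606 higher, 1236 lower, 636 at 2-fold or more). The count at 2-fold or more was 1098 with a pseudocount of 2 and 953 with a filter of 5 CPM. With a library left out, 3062 to 4075 genes were called.

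C57BL/6 replicates 4 to 6 against 1 to 3 gave 1 call, and 5 with a pseudocount of 2, 0 with quantile normalization, 0 with edgeR, 2726 with DESeq2, 0 among the protein-coding genes, 6 without chromosomes X and Y and on-off genes, and 0 to 6083 with a library left out, with 6083 when C57BL/6 replicate 4 was the one. The cause was not tested.

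Only genes that were not called turned in sign. Rpe65 was -0.0578 with quantile normalization, -0.153 against C57BL/6 replicates 1 to 3, -0.0740 with array weights, -0.0366 without both WT129 replicate 2 and C57BL/6 replicate 4, and -0.0985 to 0.141 with a library left out. Hbb-bs was -0.137 with edgeR and with DESeq2, -0.606 against replicates 1 to 3, -0.690 with array weights and -0.0729 without both libraries. Mertk was 0.00294 with edgeR, 0.00440 with DESeq2, 0.0541 against replicates 4 to 6, and -0.178 to 0.201 with a library left out. Crb1 was 0.618 against replicates 1 to 3, 0.0326 with array weights, and -0.531 to 0.209 with a library left out. Hbb-bt was 0.246 against replicates 4 to 6.

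Samples of the strains share only replicate numbers: the correlation of their deviations was 0.494, -0.269 and 0.0832 for numbers 1 to 3, and 1 of 3 WT129 libraries correlated best with its own number. With the replicate number as a block, which uses C57BL/6 replicates 1 to 3, 4334 genes were called (2732 higher, 1602 lower), and Rpe65 was -0.153, Hbb-bs -0.606 and Crb1 0.618. A join on gene identifiers could not be run, since the C57BL/6 table gives names only. Depth limits the low genes: a floor of 3 reads over a group is 0.0446 CPM in WT129 and 0.0240 CPM in C57BL/6, which covers counting error only.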
